A study of Mus musculus with 12 samples.

Results

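Cells make cholesterol from acetyl-CoA by way of mevalonate, the isoprenoid farnesyl diphosphate, squalene and a chain of sterol ring steps, and they build fatty acids from the same acetyl-CoA before lengthening them and adding double bonds. The sterol-sensing transcription factors SREBP-2 (gene Srebf2) and SREBP-1 (gene Srebf1) drive many genes of both pathways: they are held in the endoplasmic reticulum by Insig proteins while sterol is plentiful and are cut free when it runs low. The prostate is known for high rates of both pathways, and SPOP, the substrate adaptor of a cullin ubiquitin ligase, is recurrently mutated in prostate cancer.

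The 38 genes described here were taken by name as members of these pathways, out of 43243 gene names in each library. The choice was made with earlier results of these data known. There were 21 sterol genes and 17 fatty acid genes. They were measured by RNA sequencing of mouse prostate organoids, which are prostate cells grown as small bodies in Matrigel: 6 libraries labelled SPOPmut and 6 labelled SPOPwt, numbered as pairs S0 to S5. Per the labels' protocols the cultures held EGF at 5 to 50 ng/ml. CreERT2, a Cre recombinase that acts only when tamoxifen is given, was brought in by virus and selected with puromycin (model A) or carried as a TMPRSS2-CreERT2 transgene (model B), and was activated overnight with 1 µM 4-hydroxytamoxifen. SPOPmut cells were sorted for GFP, while the SPOPwt control cells went through a sham sort. The protocols count 5 pairs of model A and 1 of model B, but no library's label gives its model, the mouse strain or an age. The mutant allele is named R26F133V where the protocols describe separate lines with Cre under the Probasin promoter. The labels do not say whether pairs came from separate mice or cultures, so p-values measure the spread between these libraries, which may be technical.

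Values are RPKM, a read number scaled to gene length and to the reads of the library, as the authors deposited them. Reads per library, estimated from the spacing of low values, ran from 28280000 to 40980000. The Spop gene itself had 48.1 to 57.0 RPKM in SPOPmut libraries and 40.0 to 52.7 RPKM in SPOPwt libraries, a value that does not separate mutant from normal transcripts. The label of a prostate organoid was set against marker genes. The 10 epithelial markers summed to 3646 to 4846 RPKM in the S5 libraries, against 9.96 to 113 RPKM in S0 to S4. The 10 mesenchymal markers (Vim and Col1a1 among them) went the other way, with 0.591 to 0.885 RPKM in S5 and 1215 to 2410 RPKM in S0 to S4. The epithelial adhesion gene Epcam reached at most 1.28 RPKM in S0 to S4. The 9 luminal secretory markers summed to 571 to 611 RPKM in S5 and 42.5 to 127 RPKM in S0 to S4, mostly from Krt19 and Cd24a. Of that list, 3 were listed at 0 in all 12 libraries (Pbsn, Msmb and Spink3), and the secretory gene Tgm4 had 1.13 to 2.46 RPKM. All 10 epithelial markers were higher in both S5 libraries than in the other 10, where most of the sum came from Krt18 (6.35 to 89.6 RPKM) and Krt8 (1.44 to 21.5 RPKM). In these bulk samples, fewer cells of a type and less RNA per cell cannot be told apart.

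Of the 38 genes, 36 passed the filter of 1 RPKM in at least 6 of 12 libraries, all 21 sterol genes and 15 fatty acid genes. Acacb, the mitochondrial form of acetyl-CoA carboxylase, reached at most 0.153 RPKM. Mlxipl, which encodes the carbohydrate-sensing factor ChREBP, had 0.0124, 0, 0, 0.0852, 0.0196 and 0.0138 RPKM in the SPOPmut libraries S0 to S5, and 0.0197, 0, 0, 0.0542, 0.0147 and 0.0259 RPKM in the SPOPwt libraries. Neither was tested. Among those tested, mean levels per length spanned from Acss2, which makes acetyl-CoA from acetate (SPOPmut mean 1.63 ± 0.524 RPKM, SPOPwt mean 1.60 ± 0.608 RPKM, SD, n = 6 each), to Scd2, a stearoyl-CoA desaturase (SPOPmut 424 ± 156 RPKM, SPOPwt 455 ± 137 RPKM). The most abundant sterol gene was Hmgcs1, which makes HMG-CoA (SPOPmut 112 ± 54.4 RPKM, SPOPwt 115 ± 48.1 RPKM, both SD over 6 libraries).

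Because the sterol genes are known to share control elements just upstream of their starts, promoter windows were read from RefSeq (GRCm38.p6), which had an entry for 31 of the 38 genes. Shown are the 150 bases before the start for 3 of the 4 sterol genes and 3 of the 4 fatty acid genes whose pair differences, given further on, lay farthest apart in S0 and S1, together with Hmgcs1. Fdps had no entry, and Me1, with 2 starts in the table, is not shown. Capitals mark matches, on either strand, to TCACNCCAC (a form of the sterol element bound by SREBP), CCAAT (the element of NF-Y) and GGGCGG (the element of Sp1).
Hmgcs1: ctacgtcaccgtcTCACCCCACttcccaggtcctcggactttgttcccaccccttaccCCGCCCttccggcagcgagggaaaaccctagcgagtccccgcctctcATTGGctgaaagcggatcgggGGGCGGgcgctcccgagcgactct
Nsdhl: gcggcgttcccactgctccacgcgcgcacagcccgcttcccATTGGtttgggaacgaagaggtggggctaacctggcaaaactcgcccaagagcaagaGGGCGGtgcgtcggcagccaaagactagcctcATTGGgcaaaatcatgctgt
Mvd: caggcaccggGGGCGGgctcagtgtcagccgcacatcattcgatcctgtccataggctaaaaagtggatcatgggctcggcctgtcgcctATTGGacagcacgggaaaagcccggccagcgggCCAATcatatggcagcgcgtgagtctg
Cyp51: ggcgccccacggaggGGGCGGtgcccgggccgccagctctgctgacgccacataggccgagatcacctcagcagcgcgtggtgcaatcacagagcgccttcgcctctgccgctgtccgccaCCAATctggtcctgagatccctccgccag
Fads2: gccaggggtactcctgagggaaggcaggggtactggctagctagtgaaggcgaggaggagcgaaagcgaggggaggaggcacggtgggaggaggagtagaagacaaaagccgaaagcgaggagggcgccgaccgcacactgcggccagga
Acly: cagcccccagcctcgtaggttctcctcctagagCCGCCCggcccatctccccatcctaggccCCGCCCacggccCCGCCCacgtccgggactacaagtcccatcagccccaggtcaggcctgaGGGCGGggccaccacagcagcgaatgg
Elovl6: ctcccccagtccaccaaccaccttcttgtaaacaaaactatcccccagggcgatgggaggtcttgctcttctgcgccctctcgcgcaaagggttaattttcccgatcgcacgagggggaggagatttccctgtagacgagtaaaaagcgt

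These windows lie at chr13:119690201-119690350 (plus strand) for Hmgcs1, chrX:72918371-72918520 (plus) for Nsdhl, chr8:122443423-122443572 (minus) for Mvd and chr5:4104698-4104847 (minus) for Cyp51. Those of the fatty acid genes lie at chr19:10101504-10101653 (minus) for Fads2, chr11:100528001-100528150 (minus) for Acly and chr3:129532236-129532385 (plus) for Elovl6. In the Hmgcs1 window the TCACNCCAC match began 137 bases before the start, and 1 CCAAT match lay closer in, as in Cyp51, while Nsdhl and Mvd had 2 each. No match of the 3 motifs fell in the Fads2 and Elovl6 windows shown. Over the full window of 250 bases before to 50 after the start, CCAAT was found in 16 of 17 sterol genes with an entry (94.1%) and in 11 of 14 fatty acid genes (78.6%), against 41.1% of all 27025 genes in the table. GGGCGG was found in 16 of 17 sterol genes (94.1%) and 9 of 14 fatty acid genes (64.3%), against 38.2% of all genes. TCACNCCAC was found in 1 sterol gene (Hmgcs1, 5.88%) and 1 fatty acid gene (Mlxipl, 7.14%), against 1.44% of all genes. These counts describe letters in a window, and the forms of the sterol element that differ from this spelling were not searched.

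The first comparison the design implies is SPOPmut against SPOPwt over all 6 pairs. No gene of either pathway passed the test between genotypes. Limma on log2(RPKM + 1), with the pair as a block and Benjamini-Hochberg adjustment over all 13600 genes tested, called 0 genes higher and 0 lower (0% each), and 761 genes (5.60%) had an unadjusted p under 0.05. Of the 36 tested pathway genes, 0 were called and 0 had an unadjusted p under 0.05. The sterol genes had a median difference of -0.10 with 20 of 21 lower, and the fatty acid genes a median of -0.04 with 9 of 15 lower. Over all 13600 genes the median was 0.001, with 6766 lower. Without pair S0 the sterol median was 0.11 and the fatty acid median 0.06, so both signs turned on that pair. None of the 36 genes moved in 1 direction in all 6 pairs, where 5.30% of all genes did.

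The smallest p-values among them belonged to Fasn, Gpam and Elovl6. Fasn, the synthase that assembles palmitate, had 33.1, 51.8, 54.0, 42.9, 38.6 and 43.2 RPKM in the SPOPmut libraries S0 to S5, and 60.8, 49.0, 52.8, 48.6, 48.9 and 44.3 RPKM in the SPOPwt libraries. SPOPmut was lower in 4 of 6 pairs, the groups overlapped, and the fitted log2 difference was -0.21 (SE 0.13, limma adjusted p = 0.887). Gpam, which starts glycerolipid synthesis by attaching an acyl chain to glycerol phosphate, had 5.88, 6.07, 6.71, 4.92, 4.92 and 5.19 RPKM in SPOPmut libraries, and 6.33, 7.03, 6.58, 4.61, 5.99 and 6.12 RPKM in SPOPwt libraries. Its log2 difference was -0.10 (SE 0.067, limma adjusted p = 0.887), with the groups overlapping again. Elovl6, which lengthens palmitate to stearate, differed by -0.24 (SE 0.17, limma adjusted p = 0.887), and its values follow with pair S5. The 95% intervals of these differences show what the spread allowed: -0.50 to 0.07 for Fasn, -0.63 to 0.15 for Elovl6, and -0.73 to 0.57 for the lanosterol demethylase Cyp51.

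The genes nonetheless differed within pairs, in opposite directions in S0 and S1. These pair differences are SPOPmut minus SPOPwt on the log2(RPKM + 1) scale, from 1 library against 1, so they have no replicate check and no p. In S0 all 21 sterol genes were lower in SPOPmut, with a median of -1.36, and 20 were lower by 0.5 or more, where 16.5% of all genes were. In S1 all 21 were higher in SPOPmut, with a median of 0.56, and 13 were higher by 0.5 or more and 0 that much lower, where 2.90% and 2.32% of all genes were. The fatty acid genes followed in smaller steps: a median of -0.51 in S0, with 8 of 15 lower by 0.5 or more, and a median of 0.27 in S1, with only Acly (0.52) that far up. Under quantile normalization those fatty acid counts were 5 in S0 and 0 in S1. The other pairs stayed nearer 0, with sterol and fatty acid medians of 0.27 and 0.19 in S2, -0.05 and -0.01 in S3, -0.28 and -0.14 in S4, and 0.07 and -0.10 in S5. In S2 the medians leaned up, with 20 of 21 sterol and 15 of 15 fatty acid genes higher. In S4 they leaned down, with 20 of 21 and 14 of 15 lower. Of all 13600 genes, 6909 were lower in S0, 8017 higher in S1, 8933 higher in S2 and 7882 lower in S4. Among the 36 genes, 0 passed 0.5 either way in S2, S3 or S4. Of all genes, 0.846% were that much higher and 0.691% lower in S2, 1.08% higher and 1.59% lower in S3, and 2.22% higher and 1.40% lower in S4.

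**Figure D1:**
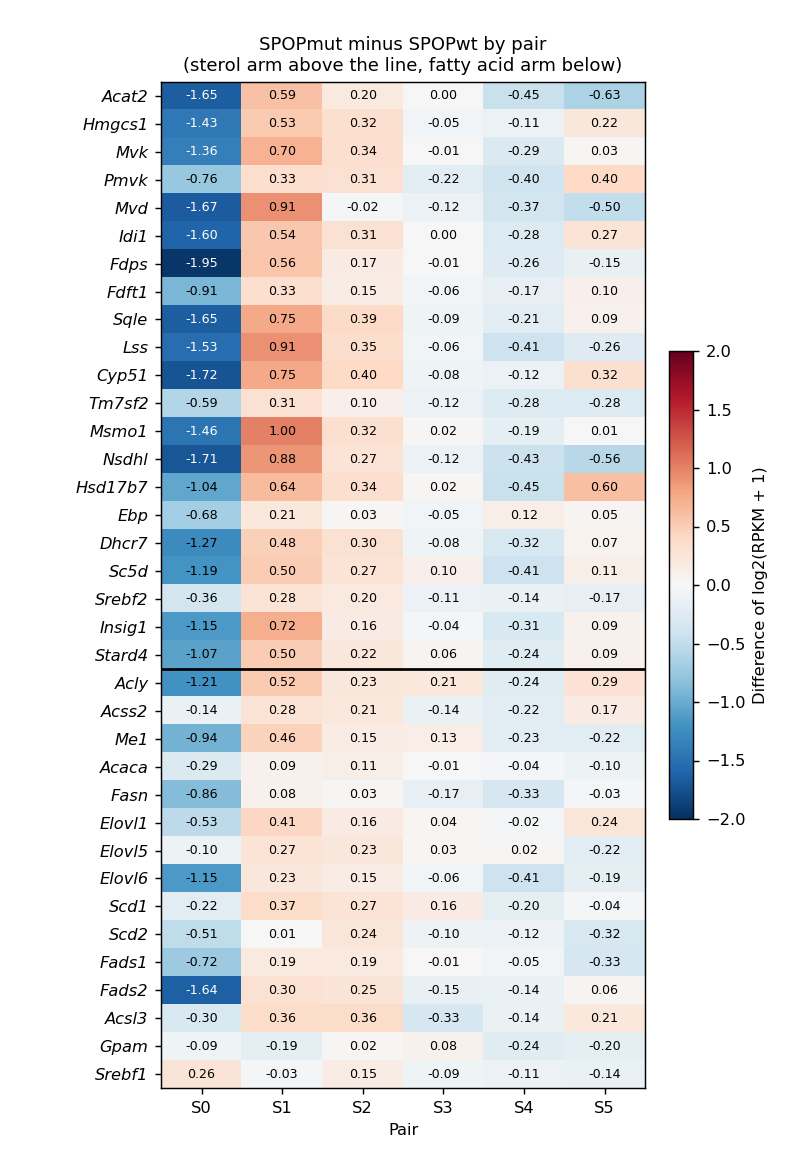
Heat map of the difference SPOPmut minus SPOPwt, in log2(RPKM + 1), for the 36 tested genes (rows) in each of the 6 pairs (columns), sterol genes above the line and fatty acid genes below. The sterol block was blue throughout S0 (-1.95 to -0.36) and red throughout S1 (0.21 to 1.00), and pale in S3 (-0.22 to 0.10).

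By role, the mevalonate steps had the lowest median in S0, -1.60, with 0.56 in S1. Fdps, which makes farnesyl diphosphate (chr3:89093588-89101967 in GRCm38.p6), had 33.8, 163, 142, 110, 134 and 49.0 RPKM in the SPOPmut libraries S0 to S5, and 133, 110, 126, 111, 160 and 54.5 RPKM in the SPOPwt libraries. The S0 SPOPmut library was the lowest of all 12, and S1 SPOPmut the highest. The pair difference of Fdps was -1.95 in S0, 3.93-fold lower in SPOPmut, and 0.56 in S1, 1.48-fold higher. Fdps shared 26.7% of its exon bases with the gene model Gm43738 on the same strand. Gm43738 is not among the deposited gene names, so whether the overlap affected the Fdps reads cannot be seen. Mvd, the decarboxylase that yields isopentenyl diphosphate, had 5.36, 20.1, 14.5, 25.6, 22.3 and 13.5 RPKM in SPOPmut libraries, and 19.2, 10.2, 14.7, 27.8, 29.2 and 19.5 RPKM in SPOPwt libraries. Here the opposite ends came from different libraries: S0 SPOPmut was the lowest of the 12 and S1 SPOPwt the next lowest. Its pair differences were -1.67 in S0 and 0.91 in S1.

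The remaining mevalonate genes repeated the pattern in S0. Hmgcs1 had 40.9, 142, 130, 157, 159 and 46.3 RPKM in SPOPmut libraries, and 112, 98.1, 104, 163, 172 and 39.7 RPKM in SPOPwt libraries, with pair differences of -1.43 in S0 and 0.53 in S1. Acat2, which joins acetyl-CoA units at the head of the pathway, had 13.1, 65.9, 54.0, 49.2, 53.3 and 11.2 RPKM in SPOPmut libraries, and 43.2, 43.4, 46.9, 49.4, 73.4 and 17.8 RPKM in SPOPwt libraries, with differences of -1.65 and 0.59. Both genes were low in S0 SPOPmut and in both S5 libraries, and the genotypes overlapped. The isomerase Idi1 differed by -1.60 in S0 and 0.54 in S1, and the mevalonate kinase Mvk by -1.36 and 0.70. The phosphomevalonate kinase Pmvk had the smallest differences of the 7, -0.76 and 0.33.

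Among the 11 squalene and ring steps, Nsdhl and Cyp51 lay farthest apart between S0 and S1. Nsdhl, which removes methyl groups from the sterol ring, had 6.22, 35.7, 25.6, 27.5, 28.8 and 13.5 RPKM in the SPOPmut libraries S0 to S5, and 22.6, 19.0, 21.0, 29.9, 39.2 and 20.4 RPKM in SPOPwt libraries. Cyp51, which acts earlier, on lanosterol, had 15.3, 71.2, 61.6, 85.8, 75.6 and 58.8 RPKM in SPOPmut libraries, and 52.8, 41.9, 46.6, 91.1, 82.4 and 47.0 RPKM in SPOPwt libraries. For both genes the S0 SPOPmut value was the lowest of 12 and the S1 SPOPwt value the lowest of the 6 controls. Pair differences were -1.71 in S0 and 0.88 in S1 for Nsdhl, and -1.72 and 0.75 for Cyp51. Msmo1, a sterol methyl oxidase, showed the largest S1 difference of all 36 genes, 1.00, with -1.46 in S0. Squalene epoxidase (Sqle) differed by -1.65 in S0 and 0.75 in S1, and lanosterol synthase (Lss) by -1.53 and 0.91. The late reductase Dhcr7 differed by -1.27 and 0.48, and the desaturase Sc5d by -1.19 and 0.50. The smallest changes were those of the isomerase Ebp (-0.68 and 0.21) and the reductase Tm7sf2 (-0.59 and 0.31). Squalene synthase (Fdft1) differed by -0.91 and 0.33, and the kit does not mark strand: 18.3% of the Fdft1 exon bases lay opposite Ctsb, a protease gene of up to 264 RPKM.

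The SREBP genes themselves differed less than most of the enzymes. Srebf2 had 56.4, 95.9, 97.4, 82.3, 84.2 and 49.0 RPKM in SPOPmut libraries, and 72.4, 79.0, 84.7, 88.9, 92.7 and 55.3 RPKM in SPOPwt libraries. Its pair difference was -0.36 in S0, the one sterol gene short of 0.5, and 0.28 in S1. Insig1, itself a target of SREBP and a retainer of it, had 16.7, 54.9, 43.4, 138, 82.7 and 30.1 RPKM in SPOPmut libraries, and 38.1, 33.0, 38.7, 141, 103 and 28.1 RPKM in SPOPwt libraries. Insig1 varied more between pairs than between genotypes, highest in both S3 libraries, with differences of -1.15 in S0 and 0.72 in S1. Srebf1 went against its own arm: 27.3, 22.5, 27.2, 15.3, 21.3 and 17.2 RPKM in SPOPmut libraries, and 22.7, 23.0, 24.3, 16.3, 23.0 and 19.1 RPKM in SPOPwt libraries. The S0 SPOPmut library held the highest Srebf1 of all, 0.26 above its control, and S1 differed by -0.03. The cholesterol carrier Stard4 differed by -1.07 in S0 and 0.50 in S1.

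In the fatty acid arm, Fads2, Acly, Me1 and Elovl6 lay farthest apart between S0 and S1. Fads2, the delta-6 desaturase of polyunsaturated fatty acids (chr19:10062765-10101503), had 41.5, 126, 125, 57.5, 106 and 52.3 RPKM in the SPOPmut libraries S0 to S5, and 132, 102, 105, 63.9, 117 and 50.0 RPKM in SPOPwt libraries. Its S0 SPOPmut value was the lowest of 12 and its S0 SPOPwt value the highest, a pair difference of -1.64, 3.18-fold lower in SPOPmut, with 0.30 in S1. Acly, which splits citrate into acetyl-CoA for both pathways, had 26.7, 76.5, 66.4, 55.9, 70.9 and 46.8 RPKM in SPOPmut libraries, and 63.3, 52.9, 56.3, 48.2, 83.9 and 38.1 RPKM in SPOPwt libraries. It was the one fatty acid gene past 0.5 in both pairs, -1.21 in S0 and 0.52 in S1. Me1, a malic enzyme that makes NADPH, had 7.55, 16.3, 12.9, 7.45, 10.9 and 11.7 RPKM in SPOPmut libraries, and 15.4, 11.6, 11.5, 6.72, 13.0 and 13.8 RPKM in SPOPwt libraries. Its values in both S3 libraries were as low as in S0 SPOPmut, and its differences were -0.94 in S0 and 0.46 in S1. The genes that make and elongate the chain spread widely in S0, with Elovl6 at -1.15, Fasn at -0.86, Elovl1 at -0.53, the carboxylase Acaca at -0.29 and Elovl5 at -0.10. Scd1, whose product makes oleate, differed by -0.22 in S0 and 0.37 in S1, and Gpam by -0.09 and -0.19.

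**Figure D2:**
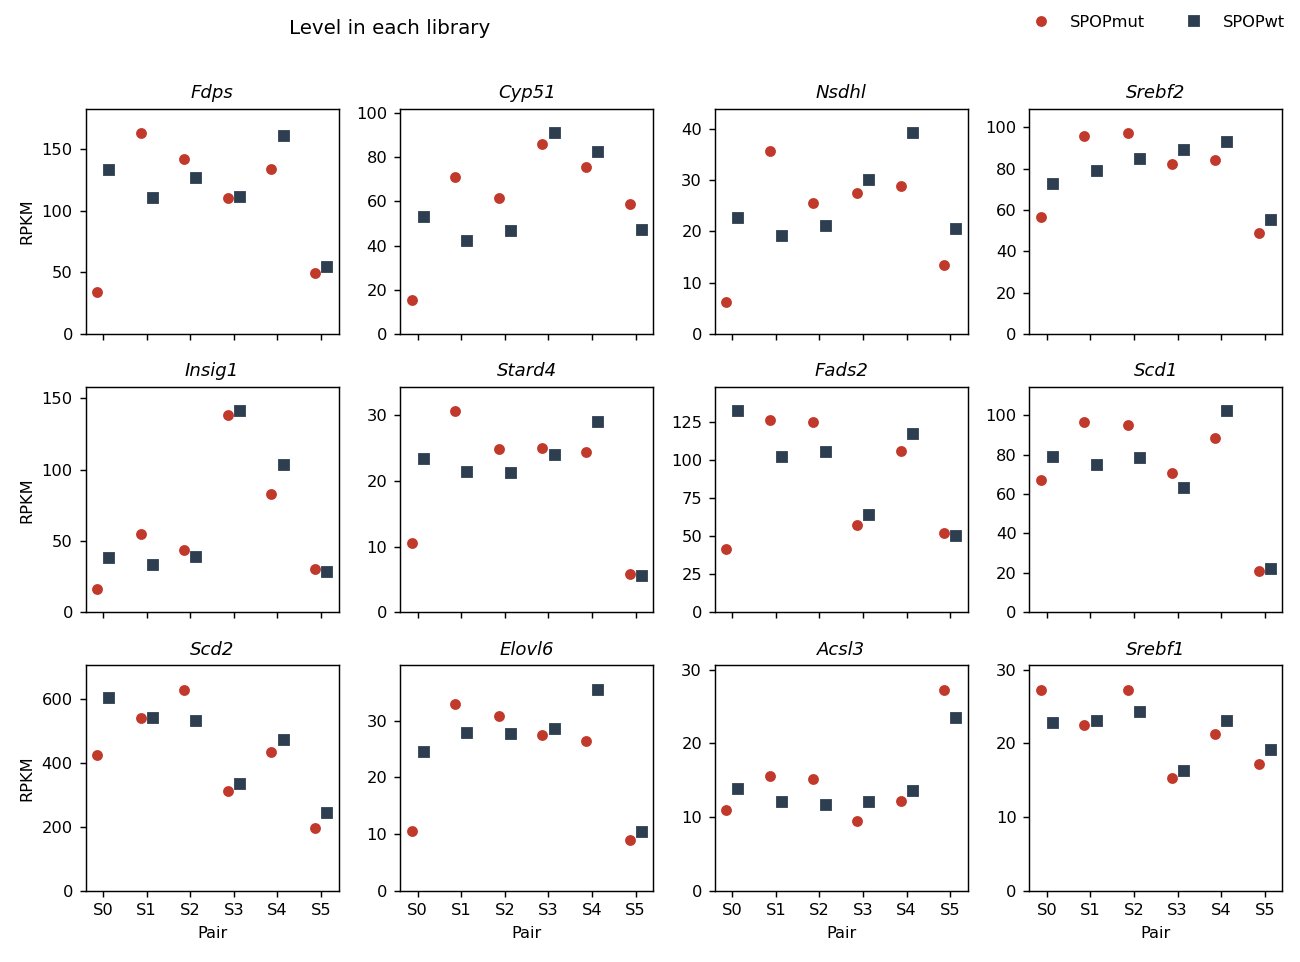
Level in RPKM (vertical axis, from 0) in each of the 12 libraries by pair for 12 genes, with SPOPmut as red circles and SPOPwt as dark squares. S0 SPOPmut was the lowest point for Fdps (33.8), Cyp51 (15.3) and Nsdhl (6.22), and both S5 points were the lowest for Stard4, Scd1 and Scd2 and the highest for Acsl3.

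The levels show which library of each pair stood out. The S0 SPOPmut library lay below all 8 libraries of S1 to S4 for 20 of 21 sterol genes, all but Ebp, and for 7 of 15 fatty acid genes, where 13.6% of all genes did so. It lay below all 11 other libraries for 14 sterol and 5 fatty acid genes (6.82% of all genes). Its control, S0 SPOPwt, fell within the range of S1 to S4 for 15 of 21 sterol and 12 of 15 fatty acid genes (53.9% of all genes). It lay below that range for Acat2, Pmvk, Idi1, Fdft1, Srebf2 and Elovl6, and above it for Ebp, Fasn and Fads2. Srebf1 alone among the 36 was higher in S0 SPOPmut than in all 8 (6.21% of all genes). S1 SPOPwt was the lowest SPOPwt library of S0 to S4 for 12 sterol and 2 fatty acid genes (10.6% of all genes), and S1 SPOPmut lay above all 5 of those SPOPwt libraries for 6 sterol and 2 fatty acid genes, 8 of 36 in all, a share near that of all genes (19.6%).

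Summed over the arm, the sterol genes came to 310 RPKM in S0 SPOPmut and 786 RPKM in S0 SPOPwt, and to 1051 RPKM in S1 SPOPmut and 703 RPKM in S1 SPOPwt. All 17 fatty acid genes summed to 733 RPKM in S0 SPOPmut and 1134 RPKM in S0 SPOPwt, and to 1110 RPKM in S1 SPOPmut and 1003 RPKM in S1 SPOPwt. So the sterol sum was 310 RPKM in 1 library and at least 499 RPKM in every other. Opposite movement in S0 and S1 was common in these libraries: 36.6% of all genes were lower in S0 and higher in S1, against 34 of the 36 pathway genes, the exceptions being Gpam and Srebf1. By 0.5 or more in both pairs, 13 sterol genes and Acly did so, against 0.684% of all genes. Of the 36, 0 did the reverse, against 1.20% of all genes. The genes were chosen with earlier results of these data known, so these shares describe them and are no test.

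**Figure D3:**
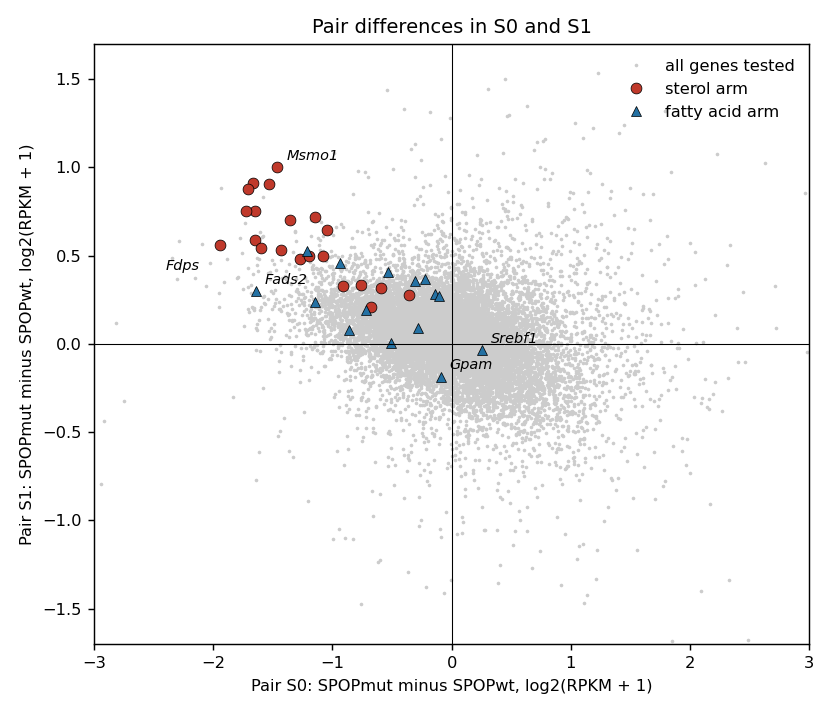
Pair difference in S0 (horizontal) against pair difference in S1 (vertical), both SPOPmut minus SPOPwt in log2(RPKM + 1), for all 13600 genes tested (grey), sterol genes (red circles) and fatty acid genes (blue triangles); 27 genes lie outside the axes. The sterol genes filled the upper left, with Fdps at -1.95 and 0.56, while Srebf1 lay right of 0 at 0.26 and -0.03.

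The labels pair S0 SPOPmut with S0 SPOPwt, but its deviations did not follow that control. The correlation of deviations from the group means across genes was 0.06 in pair S0 and 0.753 to 0.954 in the other pairs. With the S2 SPOPwt library in place of its own control, the S0 medians were -1.31 for the sterol and -0.33 for the fatty acid genes. With the same control, the S1 medians were 0.49 and 0.24. Both pairs kept their direction under either control. The S2 control was chosen after seeing the data. The S1 and S2 controls were the 2 most alike of the SPOPwt libraries (median chi-square 1.13, the next lowest 7.13, as described below). For S1 the exchange could therefore change little and is no check. In S0 the SPOPmut library lay below all 8 libraries of S1 to S4 for 20 of 21 sterol genes. The sterol direction in S0 was therefore fixed under the S2 control and is no check either.

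Other measures moved with S0. The 10 proliferation genes summed to 226 RPKM in S0 SPOPmut and 420 RPKM in S0 SPOPwt. In pair S3 these genes summed to 70.4 RPKM (SPOPmut) and 48.2 RPKM (SPOPwt), while the sterol genes there summed to 1051 and 1086 RPKM. The 10 adipocyte markers summed to 6.38 RPKM in S0 SPOPmut and 14.2 RPKM in S0 SPOPwt, and 6 of them were highest in S0 SPOPwt. Those were Adipoq, Plin1, Cidec, Lep, Cfd and Retn, which reached at most 0.0398 RPKM in the other 11 libraries, against 0.945 RPKM for Adipoq and 5.95 RPKM for Cfd in S0 SPOPwt. The other markers of that list were mixed. In S0, Pparg was higher in SPOPmut (1.54 against 0.889 RPKM) and Fabp4 about level (4.67 against 4.56 RPKM). Plin4 (0.108 against 0.272 RPKM) and Adrb3 (0.0583 against 0.191 RPKM) were lower in SPOPmut. Across S1 to S4 the adipocyte sum ran from 4.47 to 36.8 RPKM. The epithelial markers summed to 113 RPKM in S0 SPOPmut and 22.7 RPKM in S0 SPOPwt. Most of this came from Krt18 (89.6 and 17.9 RPKM) and Krt8 (21.5 and 4.45 RPKM). Cdh1 (0.992 and 0.258 RPKM) and Trp63 (1.09 and 0.112 RPKM) were also higher in SPOPmut, while Epcam was near 0 in both (0.0146 and 0.013 RPKM). The 8 macrophage markers summed to 21.2 RPKM in S0 SPOPmut and 9.30 RPKM in S0 SPOPwt, mostly from Cd14 (16.1 and 5.34 RPKM). Csf1r of that list went the other way (1.09 and 1.66 RPKM), and Ptprc was at 0 in both S0 libraries. The part of these cell markers and of proliferation in the S0 difference was not tested.

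Genes of the same network outside the 38 were read from lists of SREBP processing, sterol export and LXR, glycerolipid and oxidation genes. Limma called 0 of the tested genes of these lists between genotypes, and the smallest p-values were those of the phosphatidate phosphatase Lpin1 (log2 difference 0.27, unadjusted p = 0.0792) and the ubiquitin ligase Mylip (0.37, unadjusted p = 0.113), both with adjusted p = 0.887. Some genes of the sterol-activated LXR receptors were higher in SPOPmut in S0, opposite to the sterol genes. Of the 6 tested genes of the export and LXR list, 3 were higher by 0.5 or more (15.6% of all genes) and 0 lower. The cholesterol exporter Abca1, below the filter and so not tested, had 4.99 RPKM in S0 SPOPmut and 0.785 RPKM in S0 SPOPwt, a pair difference of 1.75. Mylip, an LXR target, had 6.79 RPKM in S0 SPOPmut and 1.64 RPKM in S0 SPOPwt, a pair difference of 1.56. The S3 libraries had as much Mylip (8.82 RPKM in SPOPmut and 8.86 RPKM in SPOPwt) beside sterol sums of 1051 and 1086 RPKM. The LXR genes Nr1h2 and Nr1h3 differed by 0.86 and 0.64 in S0, and the LXR target Lpcat3 by -0.10. The SREBP escort Scap (0.00), the proteases Mbtps1 (0.22) and Mbtps2 (-0.20) and the retainer Insig2 (0.37) stayed under 0.5 in S0. The part of LXR genes in the S0 difference was not tested.

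The last comparison sets pair S5 against pairs S0 to S4. The desaturase Scd1, the elongases Elovl5 and Elovl6 and the cholesterol carrier Stard4 were lower in S5, and the acyl-CoA synthetase Acsl3 was higher. Limma on the 6 pair means (1 against 5, with S5 assumed to vary like the others) called 1921 genes lower (14.1%) and 1485 higher (10.9%), with a median over all genes of -0.071. Of the 21 sterol genes 1 was called lower and 0 higher, and of the 15 fatty acid genes 3 were called lower and 1 higher. Over the 36 genes that is 4 lower and 1 higher, no larger a share than among all genes. Which pairs entered moved these counts: without S3 limma called 6363 genes in all, against 3406 with every pair and 1970 to 2208 without S0, S1, S2 or S4. Fatty acid genes called lower numbered 7 without S3 (27.2% of all genes) and 1 without S2 (8.50% of all genes), and sterol genes called lower 8 without S0 (9.54% of all genes) and 2 without S3. The medians were -0.59 with 18 of 21 lower for the sterol genes, and -0.56 with 12 of 15 lower for the fatty acid genes. Of all 13600 genes, 7344 were lower. Cell makeup differed at the same time, epithelial in S5 and mesenchymal in S0 to S4 by the marker sums above, and pair S5 and cell makeup cannot be told apart. The 10 proliferation genes summed to 29.6 RPKM in S5 SPOPmut and 49.7 RPKM in S5 SPOPwt, against 48.2 to 438 RPKM in S0 to S4, overlapping only pair S3. All 10 had negative S5 differences, and Mki67 (-3.94, SE 1.00, limma adjusted p = 0.0419) and Ccnb1 (-3.32, SE 0.84, limma adjusted p = 0.0374) were called lower. Their part in the S5 differences was not tested.

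Scd1 fell most among the fatty acid genes. It had 21.2 RPKM in S5 SPOPmut and 21.9 RPKM in S5 SPOPwt, and 67.3, 96.7, 94.8, 70.5 and 88.4 RPKM in SPOPmut and 78.8, 74.6, 78.4, 62.8 and 102 RPKM in SPOPwt of S0 to S4. The groups did not overlap, and the log2 difference was -1.85 (SE 0.22, limma adjusted p = 0.004). Its paralog Scd2 had 196 RPKM in S5 SPOPmut and 245 RPKM in S5 SPOPwt, and 425, 543, 631, 313 and 434 RPKM in SPOPmut and 605, 541, 534, 336 and 473 RPKM in SPOPwt of S0 to S4. Scd2 did not overlap either, but its difference of -1.10 missed the threshold (SE 0.31, limma adjusted p = 0.0507). Reads of the 2 paralogs may be shared, since the handling of reads with several matches is not given in the sources used here. Both lie on chromosome 19, at chr19:44394450-44407709 (Scd1) and chr19:44293676-44306864 (Scd2).

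Both called elongases were lower in S5. Elovl6 had 8.95 RPKM in S5 SPOPmut and 10.4 RPKM in S5 SPOPwt, and 10.5, 33.0, 30.9, 27.4 and 26.5 RPKM in SPOPmut and 24.5, 27.9, 27.7, 28.6 and 35.5 RPKM in SPOPwt of S0 to S4. S0 SPOPmut sat just above the S5 libraries. The log2 difference of Elovl6 was -1.36 (SE 0.36, limma adjusted p = 0.0424), and the call was lost without S1 (adjusted p = 0.0826), S2 (0.0851) or S4 (0.0889). Elovl5, which lengthens polyunsaturated chains and is described here because it was called, ran from 12.5 to 14.7 RPKM in S5 and from 19.1 to 24.6 RPKM, with a median of 23.4 RPKM, in S0 to S4. Its difference was -0.70 (SE 0.14, limma adjusted p = 0.0194), and it missed the threshold without S0 (0.0502) or S2 (0.0552). Fads2 had a difference of -0.83 (SE 0.40, limma adjusted p = 0.174), and Elovl1 of -0.73 (SE 0.21, limma adjusted p = 0.0502).

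Acsl3 was the one pathway gene called higher. This acyl-CoA synthetase, known from lipid droplets, had 27.3 RPKM in S5 SPOPmut and 23.4 RPKM in S5 SPOPwt, and 11, 15.6, 15.2, 9.42 and 12.2 RPKM in SPOPmut and 13.8, 12, 11.6, 12.1 and 13.6 RPKM in SPOPwt of S0 to S4. Both S5 libraries lay above all 10 others, 0.96 higher on the log2 scale (SE 0.17, limma adjusted p = 0.0118). Of the chain synthesis genes, Fasn differed by -0.11 (SE 0.17, limma adjusted p = 0.644) and Acaca by -0.58 (SE 0.27, limma adjusted p = 0.162). Acaca was low in both S5 libraries, 2.83 RPKM in SPOPmut and 3.10 RPKM in SPOPwt, against 3.32 to 6.15 RPKM in S0 to S4, without overlap. Gpam differed by -0.05 (SE 0.19, limma adjusted p = 0.878). Srebf1 differed by -0.26 (SE 0.27, limma adjusted p = 0.509).

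In the sterol arm Stard4, which carries cholesterol between membranes, fell most. It had 5.89 RPKM in S5 SPOPmut and 5.48 RPKM in S5 SPOPwt, and 10.6, 30.6, 24.8, 25.0 and 24.4 RPKM in SPOPmut and 23.4, 21.4, 21.2, 24.0 and 29.0 RPKM in SPOPwt of S0 to S4. No library overlapped, and the log2 difference was -1.83 (SE 0.29, limma adjusted p = 0.00898). The 7 mevalonate genes had a median difference of -1.13 and none was called. Acat2 (-1.63, SE 0.49, limma adjusted p = 0.0593), Hmgcs1 (-1.46, SE 0.47, adjusted p = 0.072) and Pmvk (-1.29, SE 0.41, adjusted p = 0.070) had adjusted p-values just above the threshold. Pmvk had 10.8 RPKM in S5 SPOPmut and 7.95 RPKM in S5 SPOPwt, and 10.7, 27.3, 28.0, 29.4 and 25.9 RPKM in SPOPmut and 18.7, 21.4, 22.4, 34.3 and 34.5 RPKM in SPOPwt of S0 to S4. The 11 squalene and ring genes had a median of -0.17. Cyp51 differed by -0.11 (SE 0.58, limma adjusted p = 0.904), Sqle by -0.08 (SE 0.40, adjusted p = 0.891) and Msmo1 by 0.49 (SE 0.56, adjusted p = 0.553). Whether ring and mevalonate steps differ from each other in S5 was not tested. In simulated data the S5 comparison recovered 18% of 2-fold and 48% of 3-fold changes, so a gene not called may still differ.

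The S0 SPOPmut library was low for many of the same genes. Both S5 libraries lay below all 10 others for 2 sterol genes, Srebf2 and Stard4, and for 6 fatty acid genes, where 28.1% of all genes did. Both lay above all 10 for Acsl3 alone among the 36, where 21.4% of all genes did. Leaving S0 SPOPmut out, 13 sterol and 9 fatty acid genes lay below all 9 others, where 28.8% of all genes did. That library was left out after its low values had been seen, so the rise in these counts is no test. Leaving out pair S0 takes out the same low values, so the larger number of calls given next is no test either. Without pair S0, limma called 8 of 21 sterol genes lower (9.54% of all genes), among them Srebf2 (-0.75, adjusted p = 0.0321), Hmgcs1 (-1.66, adjusted p = 0.0247), Fdps (-1.32, adjusted p = 0.0202), Acat2 (-1.85, adjusted p = 0.00984) and Pmvk (-1.47, adjusted p = 0.019).

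**Figure D4:**
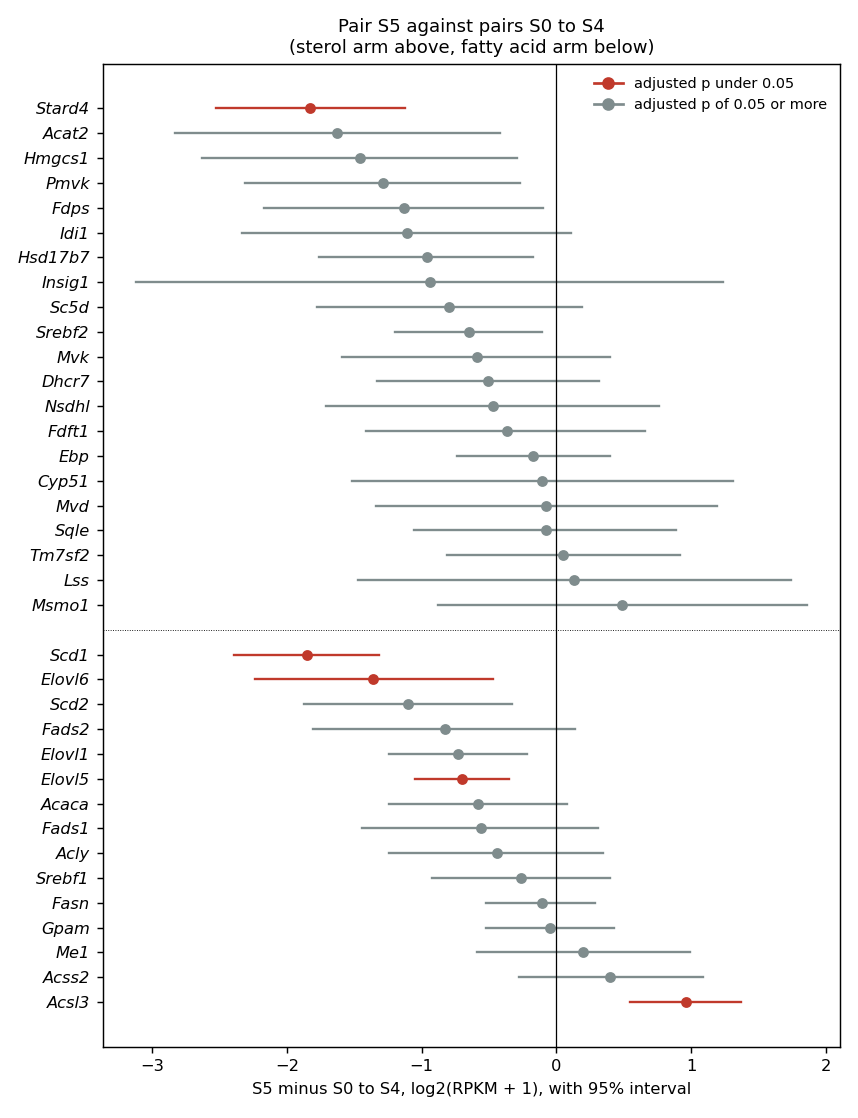
Log2 difference of pair S5 from pairs S0 to S4 (horizontal axis, log2(RPKM + 1), points with 95% intervals from limma) for the 36 tested genes, sterol genes above and fatty acid genes below, red where the adjusted p was under 0.05. Stard4 (-1.83), Scd1 (-1.85), Elovl6 (-1.36), Elovl5 (-0.70) and Acsl3 (0.96) were red, and the intervals of ring genes such as Cyp51 and Lss spanned 0.

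Of the 4 SREBP processing genes, Scap (1.02, SE 0.14, limma adjusted p = 0.00576) and the site-2 protease Mbtps2 (0.94, SE 0.14, adjusted p = 0.00763) were higher, and Insig2 (-1.08, SE 0.20, adjusted p = 0.0152) was lower. Scap had 30.5 RPKM in S5 SPOPmut and 23.3 RPKM in S5 SPOPwt, where the other 10 libraries had 11.9 to 14.2 RPKM. Among all genes 14.1% were called lower and 10.9% higher, and nothing is read from the counts of these short lists. Of the 6 tested genes of the export and LXR list, 1 was called lower, the cholesterol esterifying enzyme Soat1 (-1.53, SE 0.23, limma adjusted p = 0.00828). The exporter Abca1 was below the filter and not among them. Of 8 tested glycerolipid genes Agpat2 was called higher (0.56, SE 0.14, limma adjusted p = 0.0327) and Acsl1 lower (-0.86, SE 0.18, adjusted p = 0.0208). Of 8 tested oxidation genes the dehydrogenases Acadl (-0.88, SE 0.15, limma adjusted p = 0.0109) and Acadm (-0.75, SE 0.19, adjusted p = 0.0382) were called lower. Within pair S5 the genotypes differed little, with sterol sums of 502 RPKM (SPOPmut) and 499 RPKM (SPOPwt), and fatty acid sums of 502 RPKM (SPOPmut) and 554 RPKM (SPOPwt). Past 0.5 there stood Hsd17b7, a ring-step reductase, at 0.60, and Acat2 (-0.63) and Nsdhl (-0.56), where 3.73% of all genes were that much higher and 5.40% that much lower.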

How the data were processed

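RNA was sequenced from 12 libraries with a TruSeq kit that does not mark strand, on a HiSeq 2500 as paired reads of 51 bases, per the labels' protocols. The authors deposited RPKM for 43243 gene names per library. The submitters' processing notes name the aligner STAR 2.4.0j, with mm10 and GRCm38 as builds; the counting program, the annotation and the rule for reads with several matches are not given there. RPKM is relative to the other genes of a library, so abundant genes can shift it. Low values were whole multiples of 1 read, within 0.02, for only 25.2 to 28.6%, so counts were not recovered, and neither a count test nor a counting interval was used; depth is an estimate with GENCODE exon lengths, found for 91.2% of gene names.

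The group and pair of each library come from its title. Levels were log2(RPKM + 1), tested for the 13600 genes that reached 1 RPKM in 6 or more of the 12 libraries, with limma 3.58.1 in R 4.3.3 (trended, robust, two-sided, Benjamini-Hochberg adjustment, threshold 0.05). SPOPmut against SPOPwt used 12 libraries with pair as a block; S5 against S0 to S4 used 6 pair means. Differences of 0.5 or more (1.41-fold) within a pair were counted without a test. The scripts were tested on simulated data. Of simulated 1.5-fold, 2-fold, 3-fold and 4-fold changes, the S5 comparison recovered 0%, 18%, 48% and 66%. No 2 libraries of a genotype matched within sampling noise (lowest median chi-square 1.13, where sampling alone gives 0.455), so each was counted once. The chi-square used estimated reads, so it is approximate. S1 and S2 lay closest in both genotypes (1.13 in SPOPwt and 1.94 in SPOPmut), and the next lowest value was 7.13. Whether S1 and S2 are independent is not known. Promoters were taken from the RefSeq table by gene symbol.

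The 38 members and the gene lists were chosen with earlier results of these data known. Values in every library are given for the regulators, the most abundant gene of each arm, the 4 genes per arm with the largest gap between S0 and S1, the 4 per arm with the largest S5 difference and the 3 smallest p-values between genotypes. Alternatives were a pseudocount of 0.1, no filter, quantile and median-ratio scaling, no block, 12 libraries for S5, and leaving out each pair. Another control for S0 and S1, and S5 ranges without S0 SPOPmut, were chosen after seeing the data. A further list, of sterol supply genes outside the 38, is not reported here.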

Additional observations from a re-analysis of the deposited data

Results flagged for a closer look

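In groups of 6 values, 13 of 65 examined had an end value set apart from the rest, by a gap whose share of the whole range passed Dixon's 95% critical value. Chance flags about 1 in 20 groups, but most of these genes were named for their S0, S1 or S5 values, so the number of flags cannot be set against it. For levels in SPOPmut on the log2 scale, the gap of the lowest value took 0.78 of the range for Cyp51 in S0, 0.76 for Scd1 in S5 and 0.80 for Elovl5 in S5. For levels in SPOPwt, the lowest value was that of S5 for Fdps (0.65), Stard4 (0.80), Elovl6 (0.69) and Scd1 (0.68), and that of S3 for the malic enzyme Me1 (0.64). Acsl3 was set apart at the high end in S5 SPOPwt (0.75). For pair differences, the lowest was that of S0 for Hmgcs1 (0.67), Fdps (0.67), Cyp51 (0.65) and Fads2 (0.77).

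Pairs S0 and S1 moved apart in both arms. The S0 pair difference less the S1 pair difference was -1.92 for the sterol median and -0.78 for the fatty acid median. With 1 library per genotype in a pair, this difference was not tested.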

How the results depend on the processing

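Between genotypes limma called 0 genes under each alternative run, and without the replicate block also 0, with no call changed among 21 named genes. The numbers did not pair every library: S0 SPOPmut correlated best with the S2 control (0.967, against 0.9435 with its own), and S1 SPOPmut likewise (0.9892 against 0.9873). Leaving out each pair, signs turned among values near 0: the sterol median ran from -0.25 to 0.11 and the fatty acid median from -0.09 to 0.06, Srebf1 from -0.04 to 0.04, Srebf2 -0.12 to 0.01, Insig1 -0.25 to 0.12, Hmgcs1 -0.21 to 0.18, Nsdhl -0.51 to 0.01, Fdps -0.44 to 0.06, Cyp51 -0.24 to 0.25, Stard4 -0.19 to 0.12, Pmvk -0.15 to 0.09, Fads2 -0.32 to 0.06, Acly -0.14 to 0.20, Me1 -0.22 to 0.06, Scd1 -0.01 to 0.11, Acsl3 -0.04 to 0.10 and Elovl5 -0.01 to 0.09. Srebf1 was -0.01 with median-ratio scaling and Acly 0.00 with quantile normalization. For S5 against S0 to S4, genes called numbered 8435 without the filter on low values, 6416 over 12 libraries with no replicate block, and 1970 to 6363 leaving out each pair, beside 3406. Sterol genes called lower numbered 6 over 12 libraries and 1 to 8 leaving out each pair. Fatty acid genes called lower numbered 5 with a pseudocount of 0.1, 6 over 12 libraries and 1 to 7 leaving out each pair. The fatty acid median was -0.41 with quantile normalization and -0.56 to -0.44 leaving out each pair. Quantile normalization turned the sign of Mvd (0.03), Cyp51 (0.06), Fasn (0.05) and Gpam (0.04), and leaving out each pair gave Mvd -0.25 to 0.07 and Cyp51 -0.35 to 0.05. Elovl6 had an adjusted p of 0.0623 without the filter. Pair S0 had 5 fatty acid genes lower by 0.5 or more, and S1 had 0 higher, under quantile normalization. Without the S0 SPOPmut library, chosen after seeing the data, S5 lay below the rest for 13 sterol genes. The causes were not tested. The single S5 pair, and a depth that is only estimated, limit the precision.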
